A study of Mus musculus with 9 samples.

Results

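The unfolded protein response genes described here are 10 mouse genes of the XBP1 and ATF6 branches: Xbp1, Ern1, Atf6, Hspa5, Hsp90b1, Dnajb9, Dnajc3, Sdf2l1, Pdia4 and Herpud1. They were chosen by name, as sensors, chaperones and degradation genes of the endoplasmic reticulum (ER), and matched by gene symbol to the 28059 Entrez gene IDs of the expression table. All 10 were found, and all 10 passed the filter for testing, which asked for 3 or more libraries with an RPKM of 1 or more. RPKM divides a gene's reads by the length of its model in kilobases and by the megareads of the library.

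RNA was sequenced from YAMC cells, a conditionally immortalized epithelial line known as a model of mouse colon, although the labels give small intestine as its tissue. The wildtype parental line and the 2 knockout clones, clone 1 and clone 19 (both Cdk8 -/-, made with CRISPR), had 3 libraries each, all from cells growing at 32 °C with no further treatment named. Each knockout group is 1 clone, and without a clone that kept Cdk8 the knockout and the growth of a line from 1 cell cannot be told apart. Whether replicates came from separate cultures is not stated, so p-values speak only of the spread among these libraries.

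Cells sense unfolded protein in the ER through membrane proteins that include IRE1 (encoded by Ern1) and ATF6. Active IRE1 cuts a short intron out of Xbp1 RNA in the cytosol, and the spliced RNA encodes the active transcription factor XBP1. ATF6 moves to the Golgi, where it is cut to release a transcription factor. Both factors raise genes for chaperones, folding enzymes and ER-associated degradation, which returns misfolded protein to the cytosol for destruction. Secretory cells of the gut, such as Paneth and goblet cells, are known to depend on this pathway.

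Library depth, estimated from the size of the smallest steps in the table, was 23.2 to 44.2 megareads. Log2 values of tested genes correlated at 0.997 to 0.998 within groups and at 0.963 to 0.993 between groups. Cdk8 stood at 17.5 to 17.7 RPKM in the parental libraries, 10.3 to 11.6 in clone 1 and 10.3 to 10.5 in clone 19. Of 12 epithelial markers, 4 were tested (Cdh1, Krt8, Krt18 and Krt19). The other 8 were under 1 RPKM in every library, among them Epcam, Vil1 and the intestinal factor Cdx2, which was at 0 in all 9. Of 9 fibroblast markers, 8 were tested, and their summed level was 1820 to 1882 RPKM in parental, 1646 to 1687 in clone 1 and 1409 to 1475 in clone 19. The most abundant genes weigh most in such a sum: of these 8 genes, 3 were called higher and 5 lower in clone 1, and 2 higher and 6 lower in clone 19. The epithelial sum was 613 to 632, 986 to 1036 and 969 to 976 RPKM, with 3 of the 4 genes called higher in clone 1 and 4 in clone 19. Beside the calls of both lists, the shares over all tested genes were 39.8% higher and 32.6% lower in clone 1, and 36.7% and 32.3% in clone 19. Fbln1 passed the filter only through the parental libraries and Cdh1 only through those of clone 19, so their calls there were set by the filter. Most markers of cells with a large secretory ER were under 1 RPKM in every library. These were all 11 goblet and Paneth cell markers and 8 of 9 plasma cell markers, with Tff3, Atoh1, Mzb1, Tnfrsf17 and Pou2af1 at 0 throughout. The other plasma cell marker, Sdc1, was tested and called lower in both clones. The 9 plasma cell markers summed to 44.2 to 45.0 RPKM in parental, 39.8 to 41.6 in clone 1 and 37.1 to 39.2 in clone 19. How far the shifts of the epithelial and fibroblast markers bear on the genes below was not tested, and in bulk RNA a change in the share of cells of a type and a change of RNA per cell cannot be told apart.

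The 10 genes did not move as a block. Xbp1, Sdf2l1, Ern1 and Dnajb9 were 1.37- to 2.04-fold higher in the clones than in the parental line, Dnajc3 and Hspa5 were up to 1.20-fold higher, Hsp90b1 and Herpud1 were lower, and Pdia4 did not pass the test; the directions of Hspa5, Hsp90b1 and Atf6 turned under single alternatives given with each gene. In clone 1, 7 of the 10 were called higher and 2 lower (limma on log2(RPKM + 0.5), adjusted p under 0.05). The call rate over all 12568 tested genes was 72.4% in that contrast, 39.8% higher and 32.6% lower, so being called is the usual state of a tested gene here. In clone 19, 6 were called higher and 2 lower, against 69.0% of tested genes called, 36.7% higher and 32.3% lower. The libraries of clone 1 and parental did not overlap for any of the 10 genes, as for 75.1% of tested genes, and the same held for clone 19 and parental, as for 73.5%. The median log2 difference of the 10 genes was 0.22 in clone 1 and 0.14 in clone 19, against 0.03 and 0.02 over all tested genes. Both comparisons share the 3 parental libraries.

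**Figure D1:**
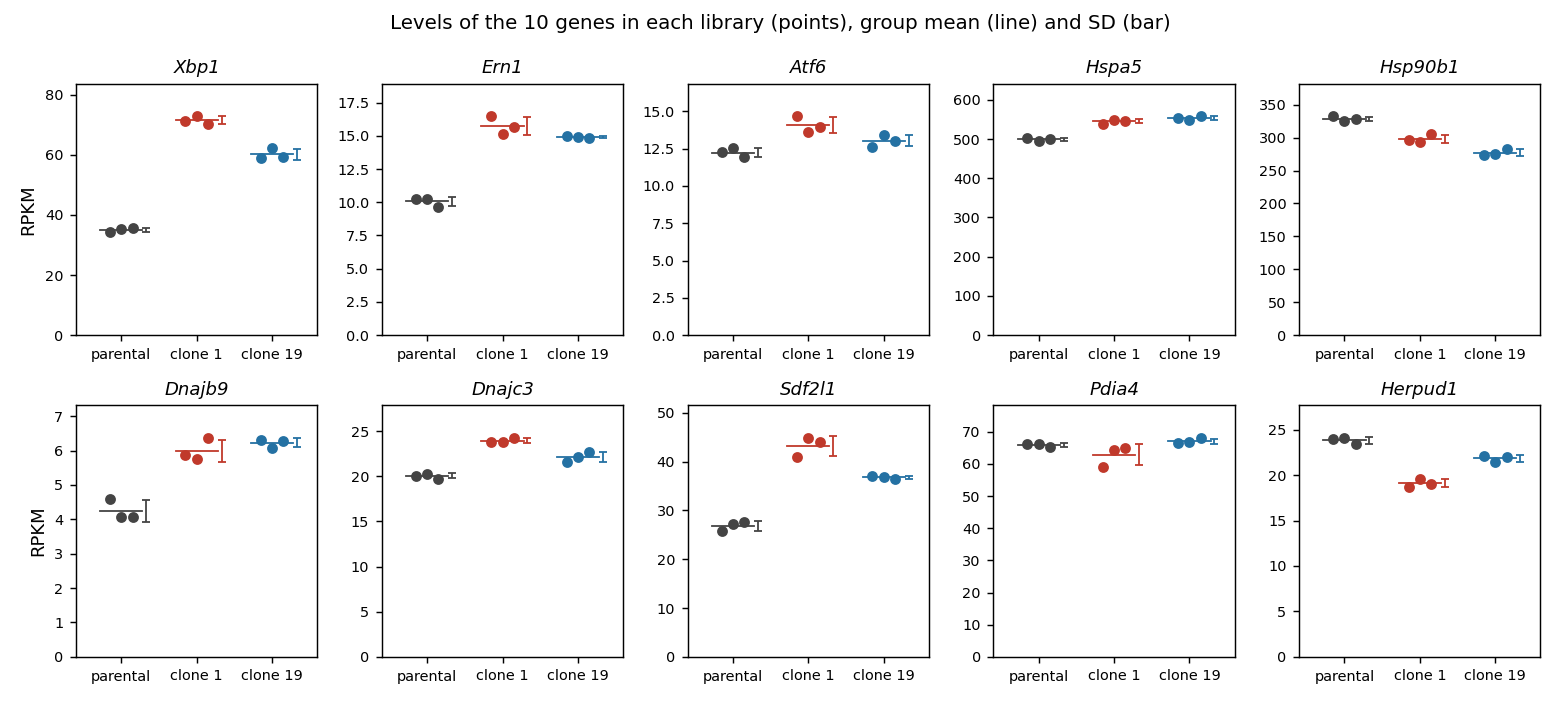
RPKM of each gene (y axis, from 0) in the 3 libraries of each group (points), with the group mean (line) and SD (bar). Relative to its parental level Xbp1 has the widest gap, 34.3 to 35.5 RPKM in parental libraries against 70.1 to 72.8 in clone 1, while Pdia4 stays between 59.1 and 68.0 in all 9.

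Xbp1 encodes the transcription factor of the IRE1 branch. It measured 34.3, 35.2 and 35.5 RPKM in the parental libraries, 71.4, 72.8 and 70.1 in clone 1, and 59.1, 62.4 and 59.2 in clone 19. The 3 groups were fully separated, with clone 1 highest. The mean was 2.04-fold the parental one in clone 1 (log2 difference 1.02 ± 0.03, SE, n = 3 against 3, adjusted p = 1.3e-10) and 1.72-fold in clone 19 (0.77 ± 0.03, adjusted p = 9.0e-10). Among tested genes its level rose from percentile 81.1 to 91.8 and 89.9. Genes around Xbp1 were higher too, as described further below: with them subtracted the differences were 0.56 and 0.44.

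A level per gene counts spliced and unspliced Xbp1 RNA together, so these values do not show how much of it IRE1 had cut. The stretch that IRE1 removes is shown because it is what the table cannot resolve. In the coding transcript used (GENCODE M21, GRCm38, exon 4, coding, plus strand, shown with 20 bases on each side at chr11:5524259-5524324) it is bases 815 to 840, at chr11:5524279-5524304, between 2 cuts in the pattern CNGCNG. The same pattern and spacing also occur at bases 458 to 483 in exon 1, which is not the known site. The stretch is 26 bases long, not a multiple of 3, so its removal shifts the reading frame. Capitals mark the removed bases.
Xbp1 intron: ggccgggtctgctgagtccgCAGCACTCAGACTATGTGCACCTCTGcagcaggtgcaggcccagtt

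Ern1, which encodes the sensor and endonuclease IRE1, also rose. It was 10.2, 10.3 and 9.67 RPKM in the parental libraries, 16.5, 15.2 and 15.6 in clone 1, and 15.03, 14.93 and 14.83 in clone 19. Every clone library was above every parental one. The log2 difference was 0.62 ± 0.04 (SE, adjusted p = 6.0e-08) in clone 1 and 0.55 ± 0.04 (adjusted p = 1.9e-07) in clone 19, or 0.37 and 0.36 with neighbouring genes subtracted. Ern2, the IRE1 of mucous epithelia, was not tested, with means of 0.0034 to 0.0139 RPKM.

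Atf6, the other sensor, changed less. It was 12.3, 12.5 and 11.9 RPKM in the parental libraries, 14.7, 13.6 and 13.9 in clone 1, and 12.6, 13.4 and 13.0 in clone 19. The clone 1 libraries were the highest, and clone 19 lay just above parental without overlap. Atf6 rose in clone 1 (0.19 ± 0.04, SE, adjusted p = 6.5e-04). In clone 19 it did not pass (0.09, 95% confidence interval 0.0045 to 0.17, adjusted p = 0.0577), but was called without clone 1 replicate 1 (adjusted p = 0.0415) or clone 19 replicate 1 (0.0413), with quantile normalization (0.0488) or with array quality weights (0.0387). With neighbouring genes subtracted both differences turned to the other side of 0 and neither was called (-0.06 and -0.04, with adjusted p of 0.139 and 0.34).

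**Figure D2:**
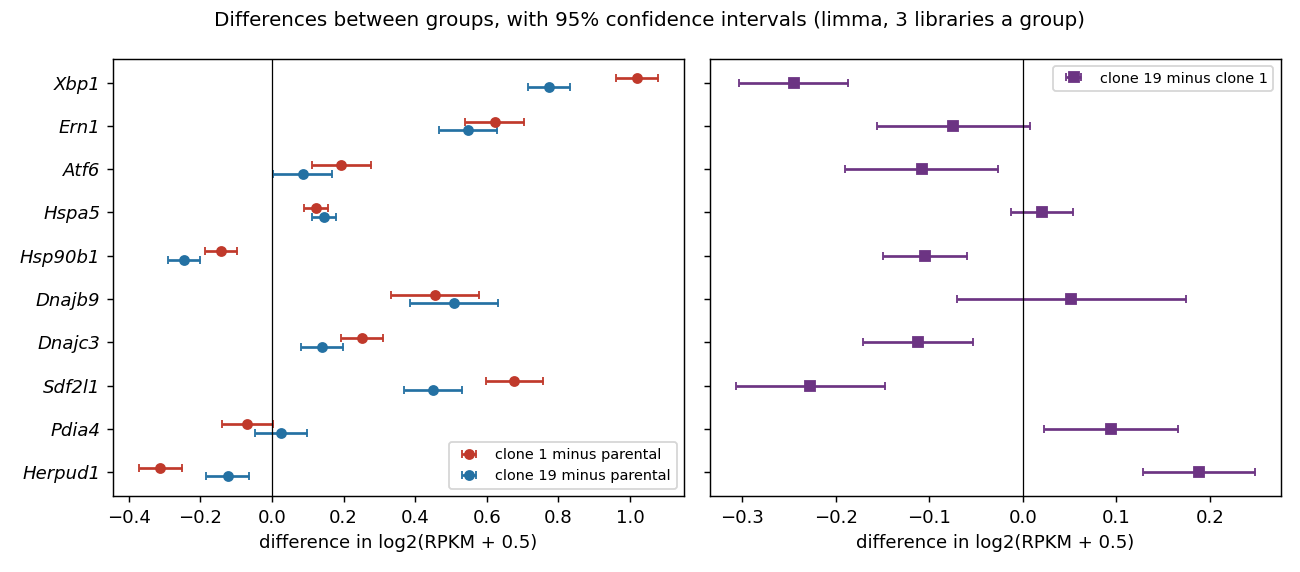
Differences in log2(RPKM + 0.5) with 95% confidence intervals from limma: each clone against parental (left) and clone 19 against clone 1 (right). Xbp1 lies farthest from 0 on the left, at 1.02 and 0.77, and on the right 7 of the 10 intervals belong to genes called different between the clones.

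Hspa5 encodes BiP, the Hsp70 chaperone of the ER lumen, which also holds the sensors inactive. It was among the most abundant RNAs, above the 99th percentile of tested genes in every group: 503, 495 and 501 RPKM in the parental libraries, 539, 550 and 546 in clone 1, and 553, 547 and 558 in clone 19. All clone libraries were above all parental ones, while the clones overlapped each other. The rise was 1.09-fold in clone 1 (log2 difference 0.12 ± 0.02, SE, adjusted p = 2.2e-05) and 1.11-fold in clone 19 (0.14 ± 0.02, adjusted p = 7.2e-06), but with quantile normalization Hspa5 was called lower in both (-0.09 and -0.08, adjusted p = 0.0089 and 0.0109), and with neighbouring genes subtracted it was higher by 0.49 and 0.51.

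Hsp90b1 encodes GRP94, the Hsp90 of the ER. It went from 332, 326 and 328 RPKM in the parental libraries to 296, 293 and 305 in clone 1 and 273, 275 and 283 in clone 19. The parental libraries were the highest and clone 19 the lowest, with no overlap. Hsp90b1 fell in both clones (log2 difference -0.14 ± 0.02, SE, adjusted p = 7.7e-05, and -0.25 ± 0.02, adjusted p = 1.0e-06, limma; -0.26 in clone 1 with quantile normalization), but with neighbouring genes subtracted it was called higher in clone 1 (0.08, adjusted p = 0.0029) but not called in clone 19 (0.03, adjusted p = 0.214).

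The co-chaperones went up. Sdf2l1, a partner of BiP and its J proteins in the ER lumen, was 25.7, 27.2 and 27.5 RPKM in the parental libraries, 40.9, 44.8 and 43.9 in clone 1, and 37.1, 36.9 and 36.5 in clone 19. The groups did not overlap, with clone 1 the highest. The log2 difference was 0.68 ± 0.04 (SE, adjusted p = 2.6e-08) in clone 1 and 0.45 ± 0.04 (adjusted p = 8.2e-07) in clone 19. Sdf2l1 was nearly the same with neighbouring genes subtracted (0.68 and 0.49).

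Dnajb9 encodes ERdj4, a J protein of BiP and a known target of XBP1. It was the least abundant of the 10 genes, with 4.60, 4.06 and 4.05 RPKM in the 3 parental libraries, 5.86, 5.76 and 6.36 in clone 1, and 6.32, 6.07 and 6.29 in clone 19. Both clones lay above parental and overlapped each other. It rose by 0.46 ± 0.06 (SE, adjusted p = 2.1e-05) in clone 1 and 0.51 ± 0.06 (adjusted p = 1.0e-05) in clone 19 on the log2 scale. With neighbouring genes subtracted the differences were 0.32 and 0.38.

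Dnajc3 encodes P58IPK, a J protein that is also known as an inhibitor of the kinase PERK. It was 20.1, 20.3 and 19.8 RPKM in the parental libraries, 23.9, 23.8 and 24.2 in clone 1, and 21.6, 22.1 and 22.7 in clone 19, again with no overlap between groups. It rose in clone 1 (log2 difference 0.25 ± 0.03, SE, adjusted p = 6.5e-06) and in clone 19 (0.14 ± 0.03, adjusted p = 6.8e-04), or by 0.17 and 0.07 with neighbouring genes subtracted.

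Pdia4 encodes ERp72, a disulfide isomerase. It was 66.1, 66.3 and 65.3 RPKM in the parental libraries, 59.1, 64.5 and 65.1 in clone 1, and 66.6, 66.7 and 68.0 in clone 19. Clone 1 replicate 1 was the lowest of the 9, and the other clone libraries lay within a few RPKM of parental. Neither difference passed (log2 -0.07, 95% confidence interval -0.14 to 0.0029, adjusted p = 0.0774, and 0.03, interval -0.05 to 0.10, adjusted p = 0.495). Pdia4 was called lower in clone 1 without clone 1 replicate 2 (adjusted p = 0.0478) or replicate 3 (0.0295), with median-ratio scaling (0.0133), with quantile normalization (5.7e-04) and with neighbouring genes subtracted (-0.20, adjusted p = 1.0e-04). With neighbouring genes subtracted it was also called lower in clone 19 (-0.11, adjusted p = 0.0055).

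Herpud1 encodes a membrane protein of the ER-associated degradation complex around the ubiquitin ligase HRD1, and is known to respond to ATF6, to XBP1 and to the PERK branch. It was 24.0, 24.1 and 23.4 RPKM in the parental libraries, 18.7, 19.6 and 19.1 in clone 1, and 22.1, 21.4 and 22.0 in clone 19. Parental was highest and clone 1 lowest, with no overlap. Herpud1 fell by 0.31 on the log2 scale in clone 1 (SE 0.03, adjusted p = 1.4e-06) and by 0.12 in clone 19 (SE 0.03, adjusted p = 0.0018). The differences were larger with neighbouring genes subtracted (-0.50 and -0.32).

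In the annotation used for names, Hspa5 overlaps Rabepk and Pdia4 overlaps Mir704, both tested genes, while Atf6 and Dnajc3 overlap genes that were not tested. Which strand was counted is not given in the sources used here, so reads from such pairs could be shared.

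Promoter elements of this response are shown because the genes that hold one did not move alike. The ER stress response element (ERSE, CCAAT and CCACG with 9 bases between them) is bound by NF-Y at CCAAT and, under stress, by ATF6 or XBP1 at CCACG. ERSE-II holds ATTGG and CCACG with 1 base between them. Both, and the core TGACGTGG of the unfolded protein response element, were searched on both strands from 250 bases before to 50 after the start site, in 32851 RefSeq promoters (GRCm38.p6). Promoters of 9 of the 10 genes were in the table, Atf6 being the exception. ERSE was found in 3 of the 9 (39 of all promoters, 0.119%), ERSE-II in 1 (12 of all, 0.0365%) and the core TGACGTGG in 0 (222 of all, 0.676%). The elements are known from promoters of such genes, so the matches are a description and not a test. No 2 matches overlapped. The stretches with matches, each upstream of the start site, run 5′ to 3′ on the gene's strand, with matches in capitals: Hspa5 at chr2:34772005-34772063 (plus strand), Hsp90b1 at chr10:86705513-86705676 (minus strand), Dnajc3 at chr14:118937807-118937865 (plus strand) and Herpud1 at chr8:94386357-94386407 (plus strand).
Hspa5: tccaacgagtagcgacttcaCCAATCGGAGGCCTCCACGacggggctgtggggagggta
Hsp90b1: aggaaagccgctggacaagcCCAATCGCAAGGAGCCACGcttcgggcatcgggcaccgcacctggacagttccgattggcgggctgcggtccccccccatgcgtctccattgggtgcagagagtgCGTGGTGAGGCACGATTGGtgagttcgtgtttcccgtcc
Dnajc3: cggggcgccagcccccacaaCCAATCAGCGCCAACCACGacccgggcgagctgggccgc
Herpud1: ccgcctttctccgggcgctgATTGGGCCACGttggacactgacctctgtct
The second match of Hsp90b1 lies on the opposite strand, so it reads in reverse. Of the 3 genes with ERSE, Hspa5 and Dnajc3 were higher in the clones and Hsp90b1 lower, except that Hspa5 was lower under quantile normalization and Hsp90b1 higher after subtraction of neighbouring genes. Herpud1, with ERSE-II, was lower. Xbp1, Ern1, Dnajb9 and Sdf2l1, which rose most, held no match in these windows. Only exact matches were counted, so an element with other bases or outside the windows would be missed.

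**Figure D3:**
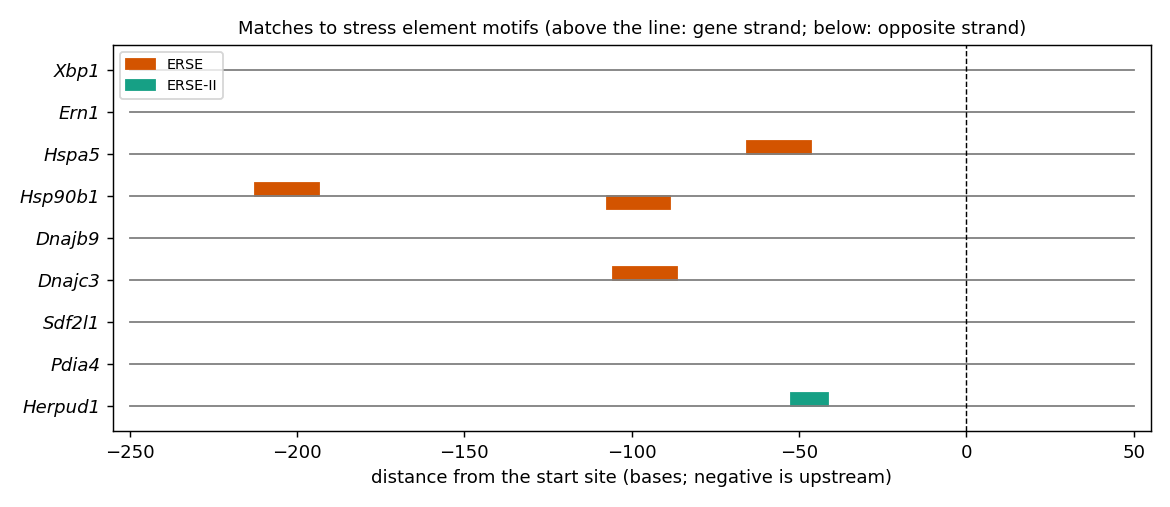
Position of each match (boxes) from 250 bases upstream to 50 downstream of the start site in the 9 promoters; boxes above a line are on the gene's strand, below it on the opposite strand. Hspa5, Dnajc3 and Herpud1 hold 1 box each and Hsp90b1 holds 2, all within 212 bases upstream.

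Each gene was set beside the 50 nearest tested genes in the gene order. Over all tested genes, subtraction of the neighbours changed the median absolute log2 difference from 0.22 to 0.18 in clone 1 and from 0.20 to 0.17 in clone 19. Whether stretches of genes were shifted together was not tested. The median difference of the neighbours was 0.46 in clone 1 and 0.33 in clone 19 around Xbp1, and 0.25 and 0.18 around Ern1, both on chromosome 11. It was -0.37 in both clones around Hspa5 on chromosome 2, and -0.22 and -0.28 around Hsp90b1 on chromosome 10. Around Herpud1 it was 0.19 and 0.20, around Pdia4 0.13 and 0.14, around Atf6 0.26 and 0.13, and around Sdf2l1 0.00 and -0.04. For Dnajb9 it was 0.14 and 0.12, and for Dnajc3 0.09 and 0.07. After subtraction, Xbp1, Ern1, Dnajb9, Dnajc3, Sdf2l1 and Hspa5 were higher in both clones, and Pdia4 and Herpud1 were lower in both (all called). The part of the neighbours' differences in each result was not tested beyond the subtraction.

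**Figure D4:**
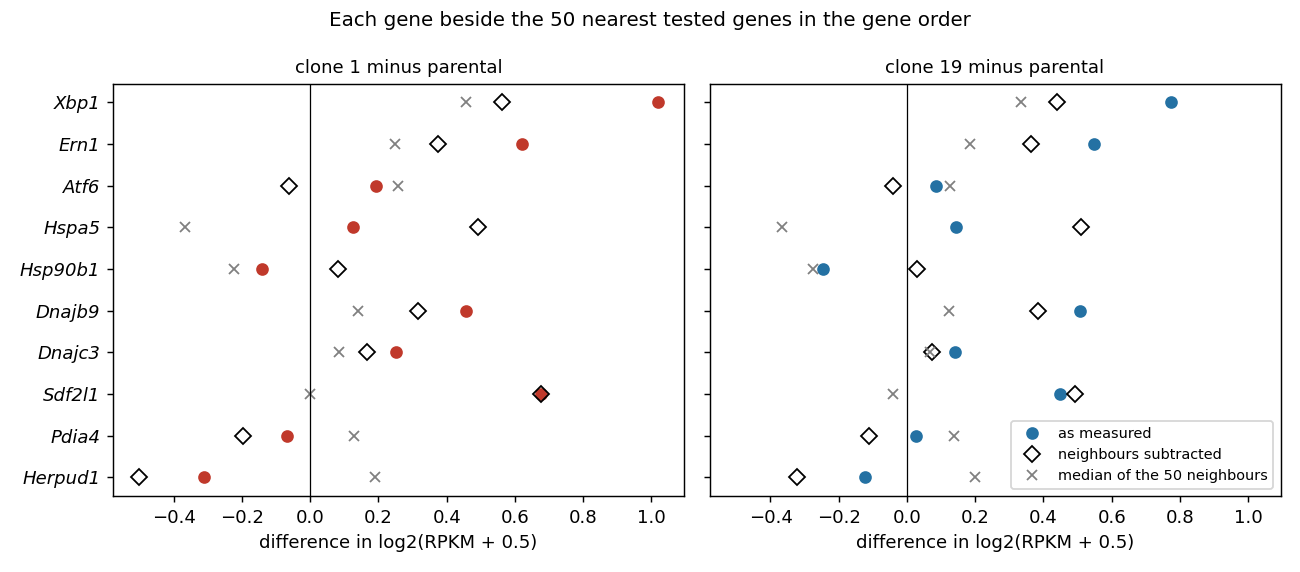
Difference of each gene from parental (filled), the median of its 50 neighbours (cross) and the difference after subtraction of the neighbours per library (open diamond), in log2(RPKM + 0.5), for clone 1 and clone 19. Xbp1 moves from 1.02 to 0.56 in clone 1 and Hspa5 from 0.12 to 0.49, while Sdf2l1 stays at 0.68.

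The clones differed from each other in 7 of the 10 genes, against 43.0% of tested genes (18.5% higher and 24.5% lower in clone 19), and libraries of the clones did not overlap for 8 of the 10, against 51.5% of tested genes. Xbp1 and Sdf2l1 were lower in clone 19 than in clone 1 by -0.24 and -0.23 on the log2 scale (adjusted p = 5.1e-05 and 6.2e-04), and Dnajc3, Atf6 and Hsp90b1 by -0.11, -0.11 and -0.10 (adjusted p = 0.0063, 0.036 and 0.0021). Herpud1 and Pdia4 were higher in clone 19 by 0.19 and 0.09 (adjusted p = 3.3e-04 and 0.0363). Ern1 (-0.07, 95% confidence interval -0.16 to 0.0072), Hspa5 (0.02, -0.01 to 0.05) and Dnajb9 (0.05, -0.07 to 0.17) did not pass. The Atf6 call ended without clone 1 replicate 1 or 3, clone 19 replicate 1 or 3, or parental replicate 1 (adjusted p of 0.050 to 0.124), and the Pdia4 call without clone 1 replicate 1 or any 1 of the clone 19 libraries (0.0638 to 0.104). After subtraction of neighbouring genes Xbp1 differed by -0.12 (adjusted p = 0.0032), Atf6 by 0.02 (0.667) and Hsp90b1 by -0.05 (0.0542), so that only the call of Xbp1 among these 3 was kept.

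The order of the levels, which RPKM allows because it divides by gene length, was Hspa5, Hsp90b1, Pdia4, Xbp1, Sdf2l1, Herpud1, Dnajc3, Atf6, Ern1 and Dnajb9 in the parental line, with no overlap between neighbours in the order. In clone 1, Xbp1 (71.4 ± 1.32 RPKM, SD, n = 3) stood above Pdia4 (62.9 ± 3.30), Dnajc3 above Herpud1 and Ern1 above Atf6. In clone 19, Pdia4 (67.1 ± 0.779) was above Xbp1 (60.2 ± 1.87), and Dnajc3 and Herpud1 overlapped.

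Genes with a pattern like that of Xbp1 were ranked by the distance between mean log2 values of the 3 groups, each taken from the gene's parental mean. The nearest of the other tested genes were Psrc1 (1.01 and 0.78 in clones 1 and 19, distance 0.01), Acod1 (1.01 and 0.77), Csdc2 (1.01 and 0.79), Perp (1.01 and 0.73) and Mmachc (1.05 and 0.74). Acod1 was low, with means of 1.56, 3.63 and 3.01 RPKM in parental, clone 1 and clone 19, where the pseudocount of 0.5 understates a change. Within the pathway lists below the nearest were Creb3l2 (0.90 and 0.79), Pmp22 (1.24 and 0.78) and Sec24a (0.80 and 0.48). For Hspa5, a small change that many genes share, the nearest were Fbxl6, Mrpl16, Tymp, Ubac2 and Il17rc, at distances of 0.0025 to 0.0065, and within the lists Ubac2, Uso1 and Sdf2.

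The other genes of the secretory pathway were followed in 7 lists with 177 genes. Their counts stand beside the shares over all tested genes, 39.8% higher and 32.6% lower in clone 1 and 36.7% and 32.3% in clone 19. Of the 19 sensors and regulators, 15 were tested: clone 1 had 6 higher, 8 lower and 1 not called, and clone 19 had 7, 6 and 2 (medians -0.07 and -0.03; 0.11 and 0.07 with neighbouring genes subtracted, and -0.19 in clone 1 with quantile normalization). The clone 19 median was -0.0017 without parental replicate 1, -0.0587 without parental replicate 3 and -0.0565 without clone 19 replicate 1. The largest change of the family was in Creb3l1, which encodes OASIS, a membrane-bound transcription factor related to ATF6. Creb3l1 was 58.8, 59.5 and 60.2 RPKM in the parental libraries, 10.6, 11.2 and 11.3 in clone 1, and 7.12, 7.62 and 7.42 in clone 19. These groups were far apart (log2 difference -2.38 ± 0.03, SE, adjusted p = 4.6e-12, and -2.93 ± 0.03, adjusted p = 1.1e-12). Its relative Creb3l2, which encodes BBF2H7, a factor known for raising genes of ER export, went the other way, from 19.9, 19.2 and 19.8 RPKM to 38.9, 36.2 and 36.2 in clone 1 and 33.6, 34.5 and 35.0 in clone 19 (0.90 and 0.79, adjusted p = 1.1e-09 and 3.3e-09). Creb3, another relative, rose as well (0.28 and 0.50; 0.50 in clone 1 with neighbouring genes subtracted). Nfyb, a subunit of the CCAAT-binding factor NF-Y that sits on ERSE, fell (-0.62 and -0.56; -0.33 and -0.26 with neighbouring genes subtracted).

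Of 38 further ER chaperones and folding enzymes, 37 were tested: clone 1 had 22 higher, 9 lower and 6 not called, and clone 19 had 19, 13 and 5 (medians 0.12 and 0.08). Quantile normalization gave 17 higher and 13 lower in clone 1 and 13 and 15 in clone 19 (medians 0.0696 and 0.0117), and subtraction of neighbouring genes a clone 1 median of 0.0644. With quantile normalization the shares over all tested genes were 37.9% higher and 34.3% lower in clone 1, and 35.3% and 33.7% in clone 19. Canx (calnexin, a lectin chaperone for glycoproteins) rose from 166 to 168 RPKM in the parental libraries to 274 to 280 in clone 1 and 230 to 238 in clone 19 (log2 difference 0.73 and 0.49). P4hb (protein disulfide isomerase) rose from a mean of 424 RPKM to 589 and 618 (0.48 and 0.54; 0.21 and 0.33 with quantile normalization). The prolyl isomerases Fkbp7 (-0.66 and -0.54; -0.36 in clone 19 with neighbouring genes subtracted) and Fkbp11 (-0.67 and -0.48) fell.

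Of 30 genes of ER-associated degradation, 29 were tested: clone 1 had 18 higher, 8 lower and 3 not called, and clone 19 had 15, 8 and 6 (medians 0.14 and 0.10, the latter 0.0558 with neighbouring genes subtracted). Selenos, a selenoprotein that links the degradation complex to the ATPase VCP, rose from 34.4 to 36.6 RPKM in the parental libraries to 50.2 to 54.0 in clone 1 and 49.1 to 49.9 in clone 19 (0.55 and 0.49). The ubiquitin ligase Rnf185 rose (0.76 and 0.49; 0.25 and 0.14 with neighbouring genes subtracted). The mannosidase Man1b1 fell (-0.51 and -0.49; -0.18 and -0.15 after subtraction). The lectin Os9 fell too (-0.49 and -0.45), a call that ended with neighbouring genes subtracted (-0.10 and -0.08, with adjusted p of 0.0613 and 0.114).

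Genes of translocation into the ER and of N-glycosylation had the highest medians of the 7 lists, 0.29 and 0.25. Of 38, 37 were tested: clone 1 had 30 higher, 3 lower and 4 not called, and clone 19 had 26, 6 and 5, so that 81.1% and 70.3% were higher, against 39.8% and 36.7% of all tested genes. Ssr3, a subunit of the translocon-associated TRAP complex, was 162 RPKM in each parental library, 252, 254 and 258 in clone 1, and 254, 255 and 261 in clone 19 (0.65 and 0.67). Magt1, a subunit of the oligosaccharyltransferase, rose from a mean of 19.7 RPKM to 30.8 and 26.9 (0.63 and 0.44), Alg5, which makes a sugar donor on dolichol, from 22.2 to 34.1 and 34.6 (0.60 and 0.63), and Sec61g, a subunit of the translocon channel, from 6.92 to 10.1 and 10.7 (0.51 and 0.60). With neighbouring genes subtracted, clone 1 had 27 higher and 1 lower, and clone 19 had 25 and 3. The shares over all tested genes with this subtraction were 33.6% higher and 32.7% lower in clone 1, and 32.0% and 31.3% in clone 19. The differences of Ssr3 (0.25 and 0.25), Alg5 (0.21 and 0.20) and Sec61g (0.24 and 0.25) were then smaller but still called.

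Of 30 ER-to-Golgi transport genes, all tested, clone 1 had 19 higher, 3 lower and 8 not called, and clone 19 had 18, 4 and 8 (medians 0.10 and 0.08). Quantile normalization gave 13 higher and 7 lower in clone 1 and 13 and 6 in clone 19 (medians 0.0235 and 0.0069), and median-ratio scaling a clone 1 median of 0.0654. With quantile normalization the shares over all tested genes were 37.9% higher and 34.3% lower in clone 1, and 35.3% and 33.7% in clone 19. The transport genes with the largest changes serve COPII vesicles, which carry cargo out of the ER. Sec24a, a cargo adaptor, rose by 0.80 and 0.48 on the log2 scale, the GTPase Sar1b by 0.66 and 0.48, the SNARE Sec22b by 0.51 and 0.45, and the adaptor Sec24b by 0.43 and 0.40. With neighbouring genes subtracted the differences were 0.38 and 0.20, 0.23 and 0.21, 0.26 and 0.18, and 0.16 and 0.13, all still called higher.

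IRE1 also degrades some RNAs of secreted and membrane proteins. Of 6 such targets known from mouse cells, clone 1 had 4 lower and 2 higher, and clone 19 had 3 lower, 1 higher and 2 not called (medians -0.26 and -0.09, but 0.09 and 0.19 with neighbouring genes subtracted). The medians were -0.15 and -0.0141 without parental replicate 3, and the clone 19 median was -0.0550 without parental replicate 2 and -0.15 with quantile normalization. Scara3, a scavenger receptor, was 4.99, 5.39 and 5.20 RPKM in the parental line, 0.379, 0.620 and 0.532 in clone 1, and 0.830, 0.660 and 0.710 in clone 19. It passed the filter only through the parental libraries, so it had to be lower in the clones, its lower calls in these counts support nothing, and it left the tested genes when any 1 parental library was left out. Pdgfrb, a growth factor receptor of mesenchymal cells, fell (-0.42 and -1.01). Pmp22, a membrane protein of myelin, rose from 36.8 to 37.8 RPKM to 87.9 to 88.9 in clone 1 and 60.9 to 69.1 in clone 19 (1.24 and 0.78). Col6a1, a collagen chain, fell (-0.32 and -0.12; -0.22 in clone 19 with quantile normalization) but with neighbouring genes subtracted was not called in clone 1 (0.04, adjusted p = 0.143) and was called higher in clone 19 (0.22, adjusted p = 2.0e-05).

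The PERK and ATF4 branch, which slows translation and raises amino acid genes, was followed with 16 genes, all tested: clone 1 had 13 lower, 2 higher and 1 not called, and clone 19 had 11 lower, 0 higher and 5 not called (medians -0.41 and -0.20), against 32.6% and 32.3% of all tested genes called lower. The 4 with the largest changes were Vldlr (-1.34 and -1.34), Ddit4 (-1.33 and -0.74), Slc7a11 (-1.06 and -0.87) and Chac1, a glutathione-degrading enzyme (-0.97 and -0.40).

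**Figure D5:**
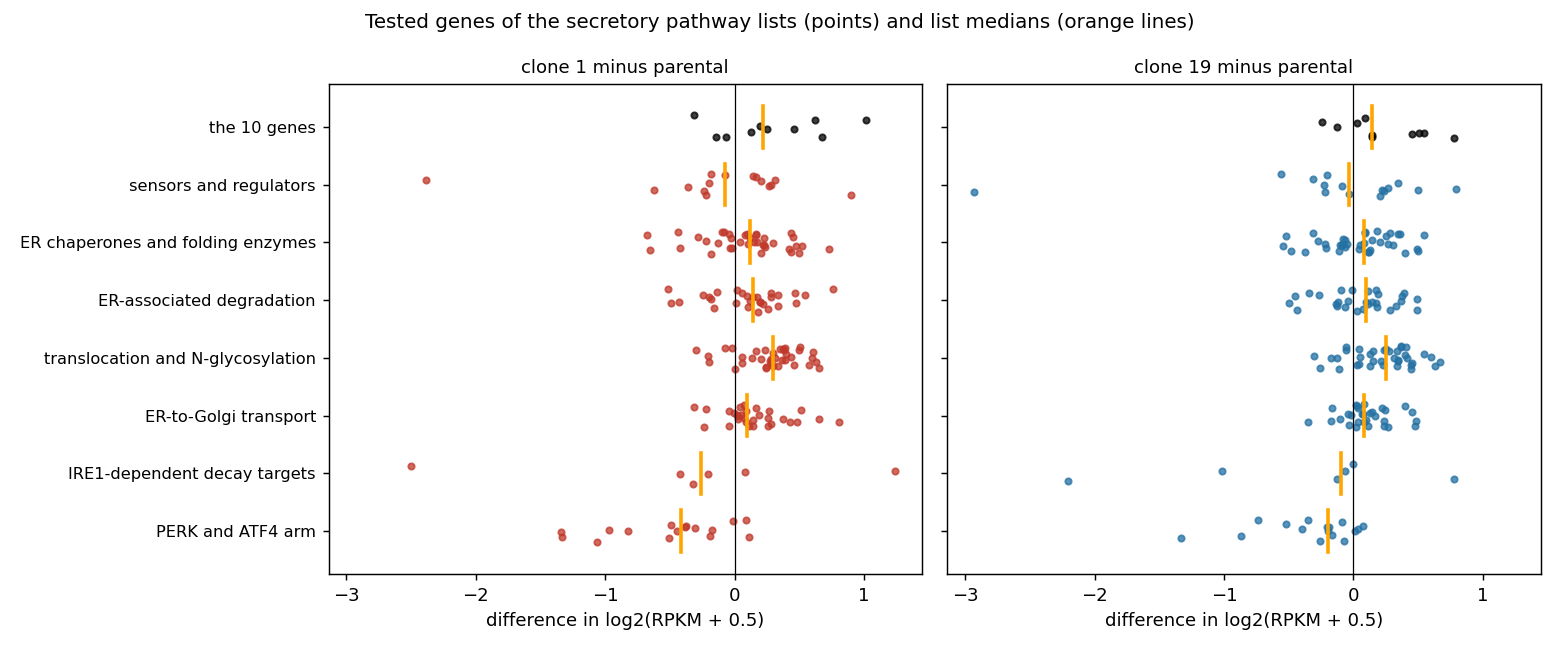
Difference from parental in log2(RPKM + 0.5) for each tested gene (points) of the 10 genes and of the 7 lists, with the list median (orange line), in clone 1 (left) and clone 19 (right). Translocation and N-glycosylation has the highest median of the 7 lists (0.29 and 0.25), and the PERK and ATF4 arm the lowest (-0.41 and -0.20).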

How the data were processed

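The authors deposited RPKM values per Entrez gene ID in a single table of the 9 libraries. The submitters' processing notes name GSNAP, DESeq and the build NCBIM37, without versions or roles. Annotation, strand and counting rule: not given in the sources used here. IDs were named from RefSeq (GRCm38.p6; 24998 IDs) and GENCODE M21 (16 IDs), used for names and gene order; 3045 had no name. Depth was estimated from single-transcript genes, in which 1 read gives a fixed step; no counts were recovered, so no count test was run.

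Values were transformed as log2(RPKM + 0.5) and fitted with limma 3.58.1 (R 4.3.3, trended variance) in 1 model of the 9 libraries, over the 12568 genes that reached 1 RPKM in 3 or more libraries. Every adjusted p-value is from limma with Benjamini-Hochberg adjustment over all tested genes of a contrast, called under 0.05. The pseudocount of 0.5 understates changes of low genes. For the neighbour subtraction, each library's value was reduced by the median deviation among the 50 tested genes nearest to it. On simulated data for clone 1 against parental (12568 genes, 50 changed at each size), 64% of changes of 0.25, 84% of 0.5 and 100% of 1 and 2 on the log2 scale were recovered, with 5 false calls. Few genes were changed there, while 72.4% of tested genes were called in clone 1 against parental. These rates therefore do not carry over to the data.

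The members, lists and tests were chosen with earlier results of these data known. The lists give counts and medians without a set test. Named from each list were up to 4 genes called in both clones with the largest summed absolute change, and genes nearest in pattern to Xbp1 and Hspa5. Alternatives were: other pseudocounts (0.1 and 1); other filters (none, or 3 RPKM); median-ratio or quantile scaling; a fit without trend, with array weights, with a replicate block or of only the groups compared; neighbour subtraction; and leaving out each library.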

Additional observations from a re-analysis of the deposited data

Results flagged for a closer look

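Of the 10 genes, 7 differed between the 2 clones by the test of clone 19 against clone 1 in limma, against 43.0% of all tested genes (18.5% higher and 24.5% lower in clone 19). Libraries of the clones did not overlap for 51.5% of tested genes. Clone 19 was lower for Xbp1 (-0.2447 on the log2 scale), Sdf2l1 (-0.2268), Dnajc3 (-0.1116), Atf6 (-0.1079) and Hsp90b1 (-0.1044), and higher for Herpud1 (0.1877) and Pdia4 (0.0946), in every case with no overlap between the libraries of the clones. For Xbp1, Sdf2l1, Dnajc3 and Herpud1 the call held under all 20 alternatives. Subtraction of neighbouring genes ended the call of Hsp90b1 (adjusted p = 0.0542). For Atf6, adjusted p was 0.124 without clone 1 replicate 1, and the call also ended without clone 1 replicate 3 (0.0647), clone 19 replicate 1 (0.123), clone 19 replicate 3 (0.0759) or parental replicate 1 (0.050), and under 6 further alternatives, 1 of which reversed it. For Pdia4, adjusted p was 0.0778 without clone 1 replicate 1, and the call also ended without clone 19 replicate 1, 2 or 3 (0.0671, 0.0638 and 0.104), and under 4 further alternatives.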

How the results depend on the processing

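Of 600 values of the 10 genes under 20 alternatives, 563 kept their direction and their side of the threshold, 9 crossed it upward, 19 downward and 9 reversed. The count of genes called ran from 9 to 10 in clone 1, 8 to 9 in clone 19 and 5 to 7 between the clones. Without an alternative, 72.4%, 69.0% and 43.0% of all tested genes were called in these 3 comparisons. Reversals came with neighbouring genes subtracted for Atf6 (-0.0622 in clone 1, -0.0398 in clone 19, 0.0223 between the clones), Hsp90b1 (0.0822 and 0.0287), Pdia4 (-0.11 in clone 19) and Col6a1 (0.0444 and 0.22), and, between the clones, Ssr3 (-0.0022) and Alg5 (-0.0060). With quantile normalization Hspa5 (-0.0861 and -0.0836), Pdia4 (-0.0546 in clone 19) and, between the clones, Vldlr (-0.0273) reversed. Leaving out 1 library reversed only differences between the clones that had not been called, Alg5 (range -0.0227 to 0.0525) and Vldlr (-0.0279 to 0.0348). Of the 7 lists, counts of calls between the clones moved by over 1.5 times with neighbouring genes subtracted: 5 in place of 8 for sensors and regulators, 15 in place of 23 for chaperones, 9 in place of 15 for degradation, 8 in place of 16 for translocation and 8 in place of 13 for transport. Over all tested genes calls between the clones fell with this subtraction too, from 18.5% higher and 24.5% lower to 16.4% and 16.7%. Without clone 19 replicate 1, sensors and regulators had 4 (4 to 8 over libraries left out), and the shares over all tested genes were 15.3% higher and 19.9% lower. The causes were not tested.

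Deviations of same-numbered libraries from their group means correlated at -0.0353 to 0.123 over 9 pairs, and those of other pairs at -0.14 to 0.0806. Same-numbered pairs of parental and clone 1 were at 0.123, 0.0678 and 0.0705, and those of parental and clone 19 at -0.0144, 0.0401 and -0.0018. Those of the clones were at -0.0353, 0.0436 and -0.0265. These ranges overlap, so whether equal numbers share a culture or day is not known. With the replicate block, 9, 8 and 6 of the 10 genes were called in clone 1, in clone 19 and between the clones, against 9, 8 and 7. The shares over all tested genes with the block were 39.7% higher and 32.2% lower in clone 1, 36.4% and 31.8% in clone 19, and 17.8% and 23.3% between the clones. Depth was estimated, not read from the files, and without counts the counting error within the RPKM values could not be modelled.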

Other observations

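Values follow for some further textbook genes of the XBP1 and ATF6 branches, which were chosen after their values were seen and not by the rule for naming, so no direction of the group can be read from them. Manf, a secreted ER stress protein, had a mean of 61.2 RPKM in parental, 88.1 in clone 1 and 78.8 in clone 19 (log2 difference 0.52 and 0.36, adjusted p = 1.2e-08 and 2.7e-07, limma). Hyou1, the large Hsp70-like exchange factor of BiP, had 61.7, 83.4 and 74.5 RPKM (0.43 and 0.27), and Creld2 43.5, 58.5 and 61.8 RPKM (0.42 and 0.50). Edem1, which sends misfolded glycoproteins to degradation, had 17.8, 22.7 and 20.2 RPKM (0.34 and 0.18), and Syvn1, the ubiquitin ligase HRD1, 18.4, 22.5 and 24.2 RPKM (0.29 and 0.39). Each of these was called higher in each clone, as were 39.8% and 36.7% of all tested genes. For the genes of this paragraph the alternatives were not followed. Calr (calreticulin) rose in clone 19 (0.12) but not in clone 1 (-0.04, adjusted p = 0.0524). Derl1, a channel protein of degradation, passed in neither (0.0080 and 0.03, adjusted p = 0.762 and 0.333). Mbtps1 and Mbtps2, the proteases that cut ATF6, went opposite ways (0.27 and 0.22 for Mbtps1, -0.18 and -0.23 for Mbtps2, all called).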
